A study of Mus musculus with 24 samples.

Results

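The Hox genes are homeobox transcription factors that lie in 4 clusters, Hoxa to Hoxd, and are numbered by paralog group along each cluster. All genes with a symbol of Hoxa, Hoxb, Hoxc or Hoxd followed by a number only were taken, which gave 39 genes in the reference name table. Of these, 38 had a row among the 37991 gene identifiers of the counts matrix, and Hoxd4 was not analysed here. Expression was measured by poly(A) RNA-seq in 24 libraries, each from the inguinal fat pads, labelled subcutaneous, of 1 female mouse aged 26 weeks.

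The mice belonged to 4 inbred strains, with 3 mice per strain and diet, which makes 8 groups. C57BL/6J is the common laboratory reference strain, NZO/HiLtJ is a strain prone to obesity and diabetes, and CAST/EiJ and WSB/EiJ descend from wild-caught mice. From 4 weeks of age they were fed 1 of 2 diets. In the standard one fat supplied 17% of energy, and in the high-fat one, also rich in sucrose (34% by weight), it supplied 45%. No group carried a transgene or deletion in the labels, and all mice came from one supplier. Replicate numbers here only name the mice of a group.

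Hox genes give cells their position along the body axis in the embryo: genes at the 3′ end of a cluster (low numbers) act towards the head, and those at the 5′ end (high numbers) towards the tail, the limbs and the urogenital tract. Stromal and fat cells of adults keep much of this pattern, so that fat depots differ in the Hox genes that they express. The proteins bind DNA together with the PBX and MEIS cofactors, and Polycomb and trithorax proteins keep each cluster partly off and partly on.

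Totals per library ran from 47651641 to 84009032 counts, and levels below are normalised CPM (each count as a share of the library total, the total being adjusted by trimmed means). Adipoq, the adipocyte hormone adiponectin, was between 599 and 2750 normalised CPM in 23 libraries and 4.09 in replicate 1 of CAST/EiJ high-fat. Epcam, a surface protein of epithelium, reached 5 CPM or more of the unscaled total in 6 libraries. These were replicate 1 of C57BL/6J high-fat, replicate 1 of CAST/EiJ high-fat, replicate 3 of WSB/EiJ standard and all 3 libraries of WSB/EiJ high-fat. Below they are called the libraries with Epcam. In the other 18, those with low Epcam, it was below that cut but not absent. Because 3 of the 6 make up a whole group, epithelial content and diet cannot be told apart in WSB/EiJ. In whole fat pads, fewer cells of a type and less RNA per cell cannot be told apart either.

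The positional genes other than Hox went partly against the subcutaneous label. Tbx15, En1 and Shox2, which have been described in subcutaneous fat, were at most 2.22, 0.239 and 0.795 normalised CPM. The highest Tbx15 value came from replicate 2 of CAST/EiJ standard, where 8 skeletal muscle markers summed to 4778 normalised CPM, and its part in that value was not tested. Wt1, a transcription factor of mesothelium and of visceral fat progenitors, was between 15.4 and 133 normalised CPM in every library. The 5 mesothelial markers, Wt1 among them, summed to between 41.3 and 386 normalised CPM.

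All 38 members together summed to between 153 and 457 normalised CPM per library. The 13 members at 1 CPM or more in all 24 libraries were spread over the 4 clusters, with 4 in Hoxa, 5 in Hoxb, 1 in Hoxc and 3 in Hoxd. By position, 4 of the 8 anterior members (paralog groups 1 to 3), 5 of the 14 central members (groups 4 to 8) and 4 of the 16 posterior members (groups 9 to 13) reached that level everywhere. A further 18 members reached it in some libraries and 7 in none. Among the former, Hoxa5, Hoxa7, Hoxc4, Hoxc5, Hoxc8, Hoxc9 and Hoxc10 reached it in 23 libraries. Each missed it only in replicate 1 of CAST/EiJ high-fat, the library with little Adipoq. The counts by cluster and by position therefore depend on that library. No single end of the clusters therefore held the detected genes.

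Per kilobase of transcript, which allows comparison between genes, the highest median over the 18 libraries with low Epcam was that of Hoxa7, at 22.6 CPM per kb. It was followed by Hoxa10 at 17.3, Hoxc8 at 11.2, Hoxd8 at 8.98, Hoxc6 at 7.35, Hoxa9 at 5.92, Hoxd3 at 5.54, Hoxc10 at 4.36 and Hoxa3 at 3.14 CPM per kb. Hoxa7, Hoxc8, Hoxd8 and Hoxc6 are central genes known from patterning of the trunk, and Hoxa9, Hoxa10 and Hoxc10 are posterior genes known from the lumbar region, hind limb and uterus. No Hoxb gene was among these 9 genes.

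**Figure D1:**
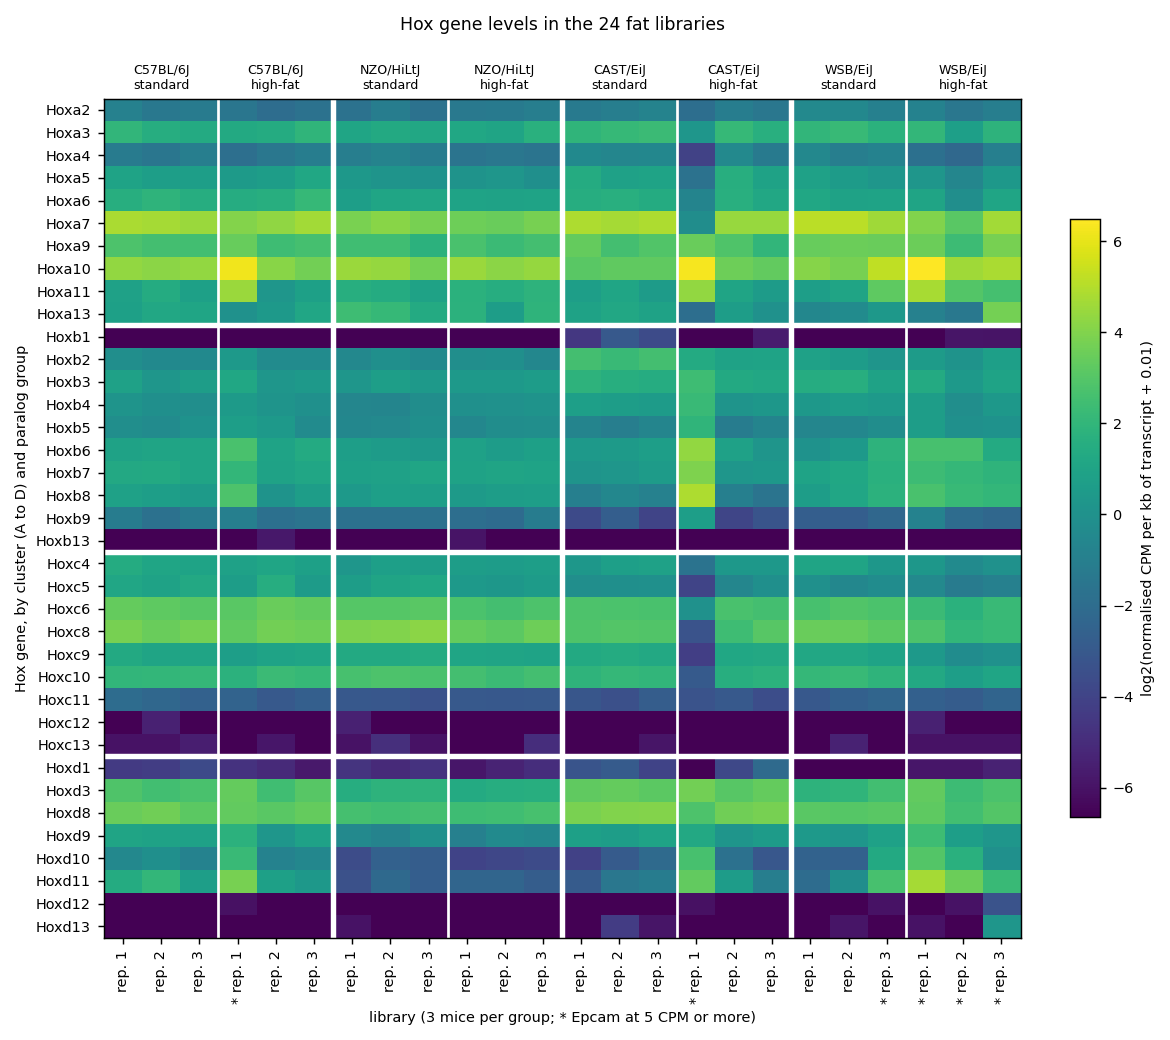
Level of 37 Hox genes (vertical axis, by cluster and paralog group) in the 24 libraries (horizontal axis, 3 mice per group), coloured by log2 of normalised CPM per kb of transcript plus 0.01; asterisks mark the 6 libraries whose Epcam reached 5 CPM. Hoxa7, Hoxa10, Hoxc8 and Hoxd8 form bright rows, the Hoxc rows are dark in replicate 1 of CAST/EiJ high-fat, and Hoxa10, Hoxa11, Hoxd10 and Hoxd11 are brighter in the libraries with an asterisk.

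Several posterior genes were almost silent. Hoxb13, Hoxc12 and Hoxc13, which lie at the 5′ ends of their clusters, had at most 5 counts in any library. Hoxb13 had 2 counts over all 24 libraries, in replicate 2 of C57BL/6J high-fat and replicate 1 of NZO/HiLtJ high-fat. Hoxd13, the limb and genital gene at the end of the Hoxd cluster, had 218 counts in replicate 3 of WSB/EiJ high-fat and at most 6 in the other 23 libraries. Its neighbour Hoxd12 had 18 counts in that library and at most 1 elsewhere. Hoxa13, which acts in the hindgut and urogenital tract, was also highest there, at 17.6 normalised CPM against 0.337 to 6.86 in the others. The same library had the highest sum of 5 urothelial markers, 1029 normalised CPM against at most 27.4 in the 18 libraries with low Epcam, and its part in these values was not tested. The low counts of Hoxb13, Hoxc12, Hoxc13, Hoxd12, Hoxd13 and Hoxb1 left these 6 members below the filter, so that 32 were tested.

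At the opposite, 3′ end, Hoxb1, a hindbrain gene, was listed at 0 counts in all libraries of C57BL/6J, of NZO/HiLtJ and of WSB/EiJ standard. It had 4, 15 and 9 counts in CAST/EiJ standard, 1 count over the 3 libraries of CAST/EiJ high-fat and 2 counts over those of WSB/EiJ high-fat. A count of 0 over the C57BL/6J standard group allows a level of up to 0.014 CPM, against 0.071, 0.248 and 0.146 normalised CPM in the CAST/EiJ standard mice. Such limits and counts carry counting error only. The mice with Hoxb1 counts above 1 were thus all CAST/EiJ on the standard diet.

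The libraries with Epcam had higher levels of some posterior genes of Hoxa and Hoxd and of some trunk genes of Hoxb. Not all posterior genes were higher there. Hoxc9 had a median of 1.77 normalised CPM in the 6 libraries and 3.50 in the 18, and Hoxc10 one of 4.25 and 8.33. Hoxa10, which patterns the uterus and lumbar spine, was at 145 normalised CPM in C57BL/6J high-fat replicate 1, 157 in CAST/EiJ high-fat replicate 1, 74.6 in WSB/EiJ standard replicate 3, and 179, 48.3 and 56.6 in WSB/EiJ high-fat. In the other 18 libraries it lay between 17.6 and 45.5. Hoxa11, its neighbour, which acts in the uterus and the limb, was at 52, 46.2, 21.2, 62.9, 17.7 and 14.1 normalised CPM in the same order, against 2.72 to 8.29. The 6 libraries did not overlap with the 18 in either gene.

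Hoxd10, a hind limb and lumbar gene, was between 1.75 and 14.2 normalised CPM in the 6 libraries and between 0.0887 and 1.70 in the 18. Hoxd11, which acts in the kidney and forearm, was between 5.33 and 29.0 against 0.0944 to 4.56. Of the trunk genes of the Hoxb cluster, Hoxb8 was between 3.90 and 33.6 against 0.366 to 2.51, and Hoxb7 between 4.08 and 19.8 against 1.42 to 3.24. These 6 genes, Hoxa10, Hoxa11, Hoxb7, Hoxb8, Hoxd10 and Hoxd11, were the tested members with every value in the 6 libraries above every value in the 18. Of all 20035 genes tested, 1.46% had that pattern. The opposite one was seen in 0 Hox genes and in 0.23% of all genes tested. The libraries were separated by Epcam and not by a treatment, so no test was made. The 9 reproductive tract markers summed to between 6.75 and 2309 normalised CPM in the 6 libraries and between 0.797 and 28.2 in the 18, and the 7 smooth muscle markers to between 885 and 10384 against 91.5 to 777. The part of these tissues in the Hox values was not tested.

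**Figure D2:**
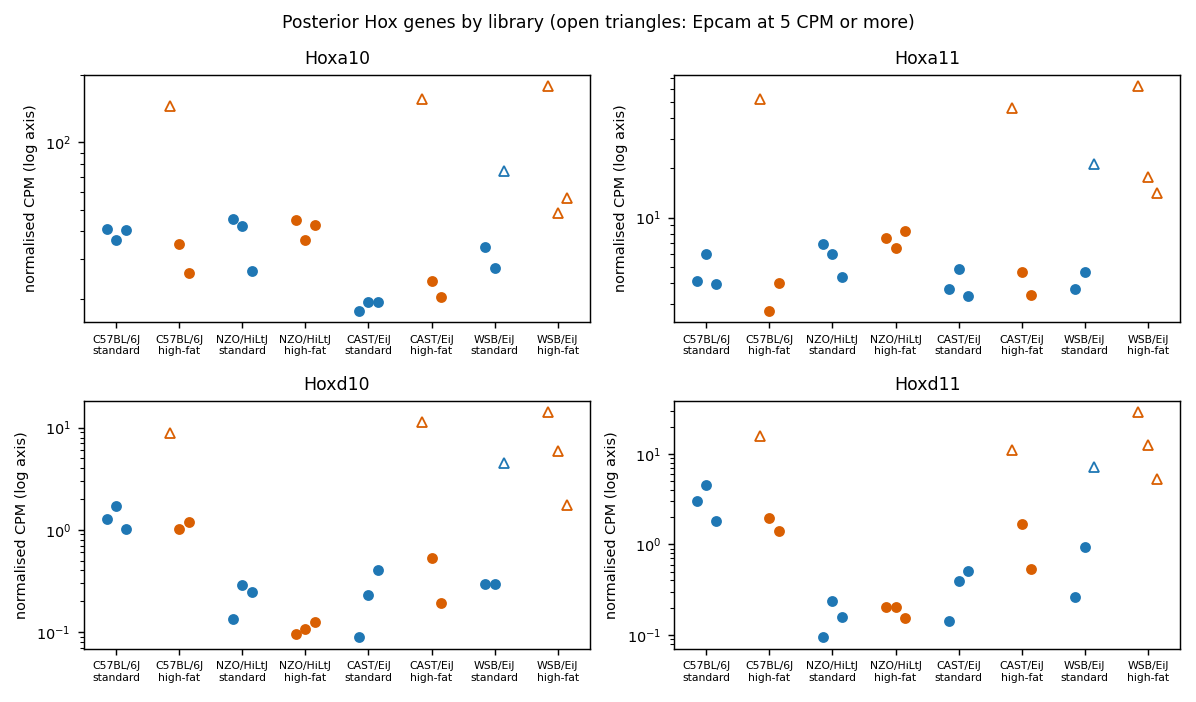
Normalised CPM (log axis) of Hoxa10, Hoxa11, Hoxd10 and Hoxd11 in each of the 24 libraries, by strain and diet; each symbol is 1 mouse, blue for the standard and orange for the high-fat diet, and open triangles are the 6 libraries whose Epcam reached 5 CPM. All triangles lie above all circles in each panel, with Hoxa11 at 14.1 or more against 8.29 or less.

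Replicate 1 of CAST/EiJ high-fat stood furthest apart. Its central and posterior Hoxc genes, Hoxc4 to Hoxc10, summed to 2.82 normalised CPM, against 33.9 to 75.1 in the 18 libraries with low Epcam. Hoxc8 was at 0.175 there and between 9.73 and 34.7 in the 18, and Hoxa7 was at 0.620 against 8.08 to 25.1. Hoxb6 to Hoxb9 instead summed to 91.3 against 4.12 to 9.69. In this library the Hoxc genes and Hoxa7 were thus low with Adipoq, while Hoxb6 to Hoxb9 were at their highest.

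**Figure D3:**
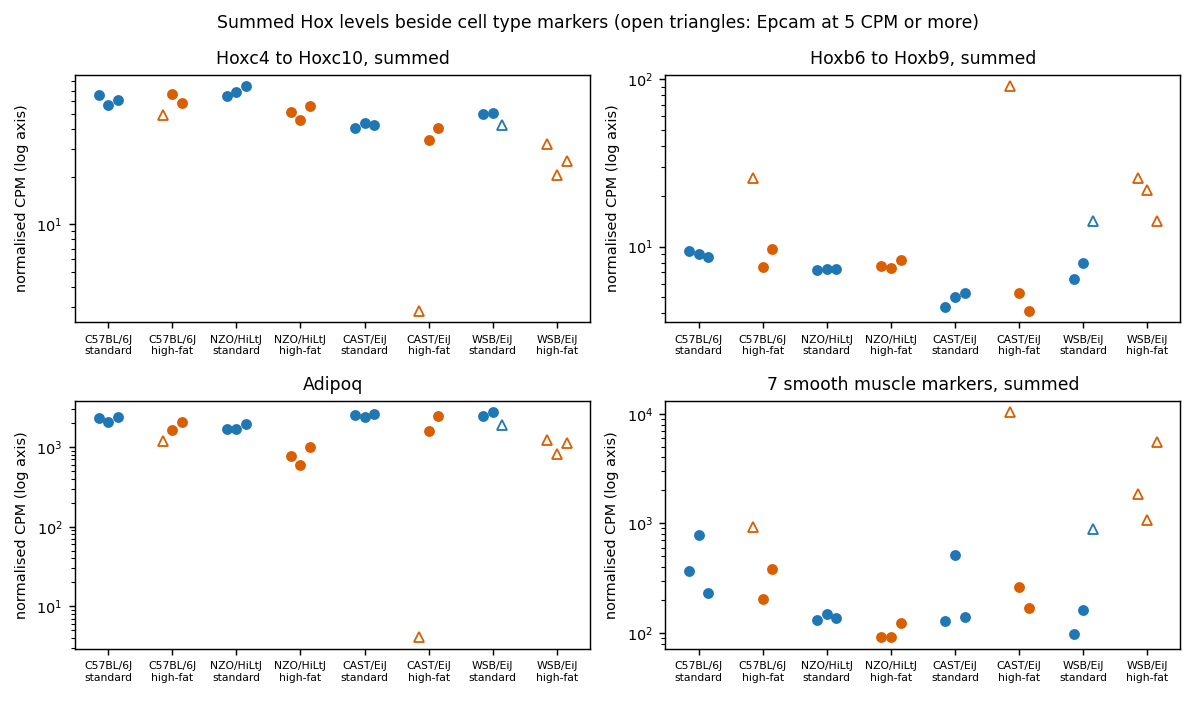
Normalised CPM (log axis) per library of Hoxc4 to Hoxc10 summed, Hoxb6 to Hoxb9 summed, Adipoq and 7 smooth muscle markers summed; each symbol is 1 mouse, blue for the standard and orange for the high-fat diet, and open triangles are mice whose Epcam reached 5 CPM. Replicate 1 of CAST/EiJ high-fat is lowest for the Hoxc sum (2.82) and Adipoq (4.09) and highest for the Hoxb sum (91.3) and smooth muscle (10384).

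Strains were compared with both diets weighted equally, by edgeR's quasi-likelihood test with Benjamini-Hochberg adjustment over all 20035 genes, calling an adjusted p below 0.05. Across the 4 strains, 17 of the 32 tested Hox genes differed, against 68.2% of all genes tested. Without the 6 libraries with Epcam, where WSB/EiJ enters by its standard diet only, it was 30 of 32, against 80.6% of the genes tested there, and with the standard groups alone 24 of 32, against 76.1%. Strain differences in Hox genes were thus no more frequent than in genes at large over all libraries. The smallest adjusted p-values by edgeR's quasi-likelihood test were those of Hoxb2 (1.13e-08), Hoxd3 (1.65e-06), Hoxd8 (6.89e-06) and Hoxb3 (0.000402). Pairs of strains share libraries, so their counts are not independent of each other.

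NZO/HiLtJ had lower Hoxd genes than C57BL/6J. Of the 32 tested, 6 Hox genes differed between these strains, against 23.4% of all genes (11.9% higher and 11.5% lower). All 6 were lower in NZO/HiLtJ: Hoxd3, Hoxd8, Hoxd9, Hoxd10, Hoxd11 and Hoxc11. The median log2 fold change of the 32 was -0.40, beside -0.03 for all genes. Within the Hoxd cluster, all tested members but Hoxd1 passed.

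Hoxd3, which patterns the neck, ran from 6.05 to 8.29 normalised CPM in the 6 NZO/HiLtJ libraries, with a median of 6.82. In C57BL/6J it ran from 12.4 to 23.6 with a median of 16, in CAST/EiJ from 19.3 to 29.9 with a median of 23.2, and in WSB/EiJ from 8.34 to 23.4 with a median of 12.5. NZO/HiLtJ was thus below each other strain with no overlap, by a log2 fold change of -1.23 ± 0.18 (SE) against C57BL/6J (adjusted p = 5.73e-05), -1.73 ± 0.18 against CAST/EiJ (adjusted p = 2.69e-07) and -0.89 ± 0.18 against WSB/EiJ (adjusted p = 0.000529) by edgeR's quasi-likelihood test. The last of these was -0.17 ± 0.17 without the 6 libraries (adjusted p = 0.431), where only standard mice are compared and WSB/EiJ standard replicates 1 and 2, at 8.34 and 8.80, stand for WSB/EiJ.

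Hoxd8, a gene of the trunk, was again lowest in NZO/HiLtJ, between 9.32 and 11.2 normalised CPM with a median of 10.1. It ran from 15.5 to 22.1 in C57BL/6J, from 12.4 to 29.1 in CAST/EiJ and from 10.1 to 16.4 in WSB/EiJ. NZO/HiLtJ was separate from C57BL/6J and CAST/EiJ and overlapped with WSB/EiJ. The log2 fold change was -0.84 ± 0.14 against C57BL/6J (adjusted p = 0.000254) and -1.19 ± 0.14 against CAST/EiJ (adjusted p = 1.55e-06) by edgeR's quasi-likelihood test. Between CAST/EiJ and WSB/EiJ it was 0.70 ± 0.14 (adjusted p = 0.000683).

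Hoxd9, which acts in the hind limb and lumbar cord, ran from 1.09 to 2 normalised CPM in NZO/HiLtJ and was at 2.47 or more in each library of the other strains, so that there was no overlap. It gave a log2 fold change of -1.54 ± 0.33 against C57BL/6J (adjusted p = 0.00213) and -1.50 ± 0.33 against WSB/EiJ (adjusted p = 0.00124) by edgeR's quasi-likelihood test.

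The difference was largest in size for Hoxd10 and Hoxd11. Hoxd11 was at 3.02, 4.56 and 1.81 normalised CPM in C57BL/6J standard and at 15.6, 1.97 and 1.41 in C57BL/6J high-fat, where the first value comes from a library with Epcam. NZO/HiLtJ had 0.0944, 0.239 and 0.157 on the standard and 0.205, 0.201 and 0.154 on the high-fat diet. All NZO/HiLtJ libraries thus lay below all C57BL/6J libraries. Between them the log2 fold change was -4.65 ± 0.92 (adjusted p = 0.00118) and, without the 6 libraries, -3.69 ± 0.44 (adjusted p = 1.46e-05) by edgeR's quasi-likelihood test. For Hoxd10, at 1.27, 1.70, 1.01, 8.79, 1.02 and 1.2 in C57BL/6J and 0.0956 to 0.287 in NZO/HiLtJ, it was -3.80 ± 0.98 (adjusted p = 0.00887) and -2.93 ± 0.34 (adjusted p = 1.29e-05). Cell type markers also differed in this pair. All 5 mesothelial, 5 of 8 adipose stromal, 3 of 7 general epithelial, 2 of 7 smooth muscle and 2 of 9 reproductive tract markers were lower in NZO/HiLtJ, and 1 adipose stromal, 3 of 5 macrophage and 3 of 6 lymphocyte markers were higher. Their part in the Hoxd values was not tested.

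The other strains were not uniformly high. Outside the 6 libraries, Hoxd11 was at 0.142, 0.397, 0.503, 1.70 and 0.539 normalised CPM in CAST/EiJ and at 0.262 and 0.947 in WSB/EiJ, so C57BL/6J stood highest except for 1 overlapping CAST/EiJ library. Against WSB/EiJ, NZO/HiLtJ had a Hoxd11 log2 fold change of -5.22 ± 0.94 over all libraries (adjusted p = 0.00022) and -1.88 ± 0.65 without the 6 (adjusted p = 0.0283) by edgeR's quasi-likelihood test. In that pair all 7 smooth muscle and 6 of 9 reproductive tract markers were lower in NZO/HiLtJ over all libraries, whose part was not tested. CAST/EiJ against WSB/EiJ gave -2.41 ± 0.82 (adjusted p = 0.0283), and -0.80 ± 0.63 without the 6 (adjusted p = 0.339).

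The Hoxd windows upstream of annotated starts are shown because Hoxd8, Hoxd10 and Hoxd11 were all lower in NZO/HiLtJ than in C57BL/6J, with Hoxb8 for comparison. Across strains Hoxb8 was not called over all libraries (adjusted p = 0.513) and was called without the 6 (adjusted p = 3.77e-06), by edgeR's quasi-likelihood test. RefSeq promoter sequence of build GRCm38.p6, which is C57BL/6J reference sequence and not that of the other strains, was matched for 21 of the 38 members (23 windows). Each line gives the 250 bases before a start, 5′ to 3′ on the coding strand, in lower case. Capitals mark a CCAAT box, bound by the factor NF-Y, or the PBX and HOX site TGATNNAT, each searched on both strands, so that some stand as their reverse complement. The windows are chr2:74682073-74682322 for Hoxd11 (second annotated start), chr2:74691641-74691890 for Hoxd10, chr2:74704365-74704614 for Hoxd8 and chr11:96281655-96281904 for Hoxb8, all on the plus strand, and none overlapped an annotated exon.
Hoxd11: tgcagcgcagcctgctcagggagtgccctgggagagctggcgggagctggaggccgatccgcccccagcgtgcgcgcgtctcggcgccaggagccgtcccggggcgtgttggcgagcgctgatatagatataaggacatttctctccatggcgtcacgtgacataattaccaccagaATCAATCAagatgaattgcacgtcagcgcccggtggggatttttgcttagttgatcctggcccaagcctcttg
Hoxd10: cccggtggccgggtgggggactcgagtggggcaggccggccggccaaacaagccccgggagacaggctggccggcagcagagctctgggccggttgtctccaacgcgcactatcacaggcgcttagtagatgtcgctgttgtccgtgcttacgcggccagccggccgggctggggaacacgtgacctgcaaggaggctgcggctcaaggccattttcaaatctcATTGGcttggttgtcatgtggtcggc
Hoxd8: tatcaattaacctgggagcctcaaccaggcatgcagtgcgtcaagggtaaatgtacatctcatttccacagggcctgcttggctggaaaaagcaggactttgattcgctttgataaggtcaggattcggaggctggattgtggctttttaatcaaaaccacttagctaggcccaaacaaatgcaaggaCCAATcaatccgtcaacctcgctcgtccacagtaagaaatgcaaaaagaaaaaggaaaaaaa
Hoxb8: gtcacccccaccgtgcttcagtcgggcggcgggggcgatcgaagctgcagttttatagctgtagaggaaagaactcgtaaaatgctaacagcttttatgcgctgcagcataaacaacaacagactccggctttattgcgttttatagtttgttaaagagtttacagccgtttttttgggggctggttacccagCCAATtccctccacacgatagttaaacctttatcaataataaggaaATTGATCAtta

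TGATNNAT was present in 4 of the 23 Hox windows (17.4%), those of Hoxa2, Hoxb1, Hoxb8 and Hoxd11, and in 7.68% of all 32851 windows of that length. CCAAT was present in 13 of 23 (56.5%) against 33.8%, and the MEIS site TGACAG in 2 of 23 (8.70%) against 15.9%. The median number of CG dinucleotides per window was 13 for the Hox genes, with a range of 2 to 35, and 6 for all windows. Of the Hoxd genes lower in NZO/HiLtJ that have a printed window, Hoxd10 and Hoxd8 hold a CCAAT box and Hoxd11 holds the PBX and HOX site. Other windows of the lower Hoxd genes were not printed and overlapped annotated exons. Those of Hoxd9 and of the first Hoxd11 start held none of these motifs, and that of Hoxd3 held a CCAAT box. A match is a description of letters and not evidence of binding.

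CAST/EiJ had higher genes at the 3′ end of the Hoxb cluster than C57BL/6J and lower Hoxc4, Hoxc5, Hoxc6 and Hoxc11. In this pair 9 of 32 Hox genes passed the test, against 39% of all genes (18.7% higher and 20.2% lower), with 4 higher (Hoxb2, Hoxb3, Hoxb4 and Hoxd3) and 5 lower (among them Hoxc4, Hoxc5, Hoxc6 and Hoxc11) in CAST/EiJ. The median log2 fold change of the 32 was -0.15, beside 0.02 for all genes. Hoxc8, Hoxc9 and Hoxc10 were not called over all libraries. Without the 6 libraries they were called by edgeR's quasi-likelihood test, but in different directions. The log2 fold change was then -0.80 ± 0.12 for Hoxc8, -0.27 ± 0.07 for Hoxc10 and 0.26 ± 0.08 for Hoxc9. Over all libraries, 5 of 5 brown adipocyte and 4 of 8 skeletal muscle markers were higher in CAST/EiJ. Lower were 6 of 6 lymphocyte, 4 of 5 endothelial, 3 of 5 macrophage and 5 of 8 adipose stromal markers. The skeletal muscle markers summed to 4778 normalised CPM in replicate 2 of CAST/EiJ standard and to 8.10 to 82.3 in the other CAST/EiJ libraries. In C57BL/6J they summed to 14.8 to 69.9, so that high sum came from 1 mouse. The part of these cells in the Hox values was not tested.

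Hoxb2, a gene of the hindbrain, was at 9.48, 7.67 and 9.53 normalised CPM in CAST/EiJ standard and at 4.20, 3.09 and 3.15 in CAST/EiJ high-fat. It ran from 1.21 to 2.18 in C57BL/6J, from 1.08 to 1.48 in NZO/HiLtJ and from 1.70 to 2.95 in WSB/EiJ. CAST/EiJ therefore lay above every other strain with no overlap. The log2 fold change was 1.96 ± 0.18 against C57BL/6J (adjusted p = 6.34e-08) and 1.24 ± 0.17 against WSB/EiJ (adjusted p = 1.66e-05), and NZO/HiLtJ against CAST/EiJ gave -2.10 ± 0.18 (adjusted p = 1.99e-08), by edgeR's quasi-likelihood test. WSB/EiJ stood between, at 0.72 ± 0.17 against C57BL/6J (adjusted p = 0.00449), and NZO/HiLtJ against WSB/EiJ gave -0.86 ± 0.17 (adjusted p = 0.000606).

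The next genes of the cluster moved less. Hoxb3, another hindbrain and neck gene, ran from 4.38 to 10.2 normalised CPM in CAST/EiJ, from 2.20 to 4.23 in C57BL/6J, from 2.24 to 3.12 in NZO/HiLtJ and from 2.55 to 5.58 in WSB/EiJ. CAST/EiJ was thus separate from C57BL/6J and NZO/HiLtJ and overlapped with WSB/EiJ. The log2 fold change was 1.09 ± 0.23 against C57BL/6J (adjusted p = 0.00101), and NZO/HiLtJ against CAST/EiJ gave -1.22 ± 0.23 (adjusted p = 0.000242) by edgeR's quasi-likelihood test. Hoxb4, which is also known from blood progenitors, was at 2.86 to 12.1 in CAST/EiJ against 2.25 to 3.60 in C57BL/6J, with overlap and a log2 fold change of 0.87 ± 0.27 (adjusted p = 0.0158). The Hoxb4 value was 0.47 ± 0.12 without the 6 libraries (adjusted p = 0.00341). Reads of Hoxb3 and its antisense gene Hoxb3os cannot be told apart where the strand of counting is not given.

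Farther along the same cluster the order turned round outside the 6 libraries. In the 5 CAST/EiJ libraries with low Epcam, Hoxb8 was at 0.568, 0.761, 0.601, 0.568 and 0.366 normalised CPM, and in the 5 such C57BL/6J libraries at 2.10, 1.83, 1.63, 1.22 and 1.77. These libraries did not overlap. Over all libraries the log2 fold change was 0.05 ± 0.74 (adjusted p = 0.968), and without the 6 it was -1.58 ± 0.18 (adjusted p = 3.86e-06) by edgeR's quasi-likelihood test, where the first includes a value of 33.6 in replicate 1 of CAST/EiJ high-fat. Hoxb9, a gene of the thorax, behaved alike, with -0.69 ± 0.57 over all libraries (adjusted p = 0.359) and -2.01 ± 0.30 without the 6 (adjusted p = 5.5e-05). Hoxb8 and Hoxb9 were picked out here after their values were seen.

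Hoxc5, a gene of the neck and upper trunk, was higher in C57BL/6J and NZO/HiLtJ than in the strains from wild mice. It ran from 4.32 to 8.58 normalised CPM in C57BL/6J, from 3.62 to 6.51 in NZO/HiLtJ, from 0.162 to 2.78 in CAST/EiJ and from 1.24 to 2.83 in WSB/EiJ. The first 2 strains overlapped with each other and lay above the last 2 in every library. Against C57BL/6J the log2 fold change was -1.57 ± 0.38 in CAST/EiJ (adjusted p = 0.00313) and -1.62 ± 0.38 in WSB/EiJ (adjusted p = 0.00394) by edgeR's quasi-likelihood test. NZO/HiLtJ against CAST/EiJ gave 1.21 ± 0.38 (adjusted p = 0.0126), and against WSB/EiJ 1.26 ± 0.38 (adjusted p = 0.0118).

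Its neighbours changed by less. Hoxc6, a thoracic gene, ran from 13.5 to 17.6 normalised CPM in C57BL/6J, from 1.55 to 11.1 in CAST/EiJ and from 5.29 to 12.0 in WSB/EiJ, so C57BL/6J was separate from both. Its log2 fold change was -0.83 ± 0.27 in CAST/EiJ (adjusted p = 0.0232) and -0.82 ± 0.27 in WSB/EiJ (adjusted p = 0.0301) by edgeR's quasi-likelihood test. Without the 6 libraries these were -0.61 ± 0.08 (adjusted p = 2.25e-05) and -0.41 ± 0.12 (adjusted p = 0.0116). Hoxc4, at 3.65 to 5.47 in C57BL/6J and 0.633 to 3.75 in CAST/EiJ, overlapped in range and gave -0.75 ± 0.25 (adjusted p = 0.0246).

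The posterior Hoxc genes followed another order. Hoxc10, a gene of the lumbar region and hind limb, ran from 9.47 to 13.5 normalised CPM in NZO/HiLtJ, above all libraries of C57BL/6J (6.51 to 9.26), CAST/EiJ (0.229 to 8.05) and WSB/EiJ (3.12 to 8.80). For NZO/HiLtJ the log2 fold change was 1.05 ± 0.41 against CAST/EiJ (adjusted p = 0.0394) and 1.06 ± 0.41 against WSB/EiJ (adjusted p = 0.042), and against C57BL/6J it was 0.55 ± 0.41 (adjusted p = 0.368) by edgeR's quasi-likelihood test. Without the 6 libraries the last was 0.49 ± 0.07 (adjusted p = 7.35e-05), so the difference from C57BL/6J passed in the set with low Epcam. NZO/HiLtJ thus combined the lowest Hoxd9 with the highest Hoxc10. Hoxc11, at 0.485 normalised CPM or less in every library, had a log2 fold change against C57BL/6J of -0.64 ± 0.19 in NZO/HiLtJ (adjusted p = 0.0192) and -0.75 ± 0.19 in CAST/EiJ (adjusted p = 0.00453). CAST/EiJ against WSB/EiJ gave -0.58 ± 0.19 (adjusted p = 0.0244). The last was -0.30 ± 0.32 without the 6 libraries (adjusted p = 0.503).

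**Figure D4:**
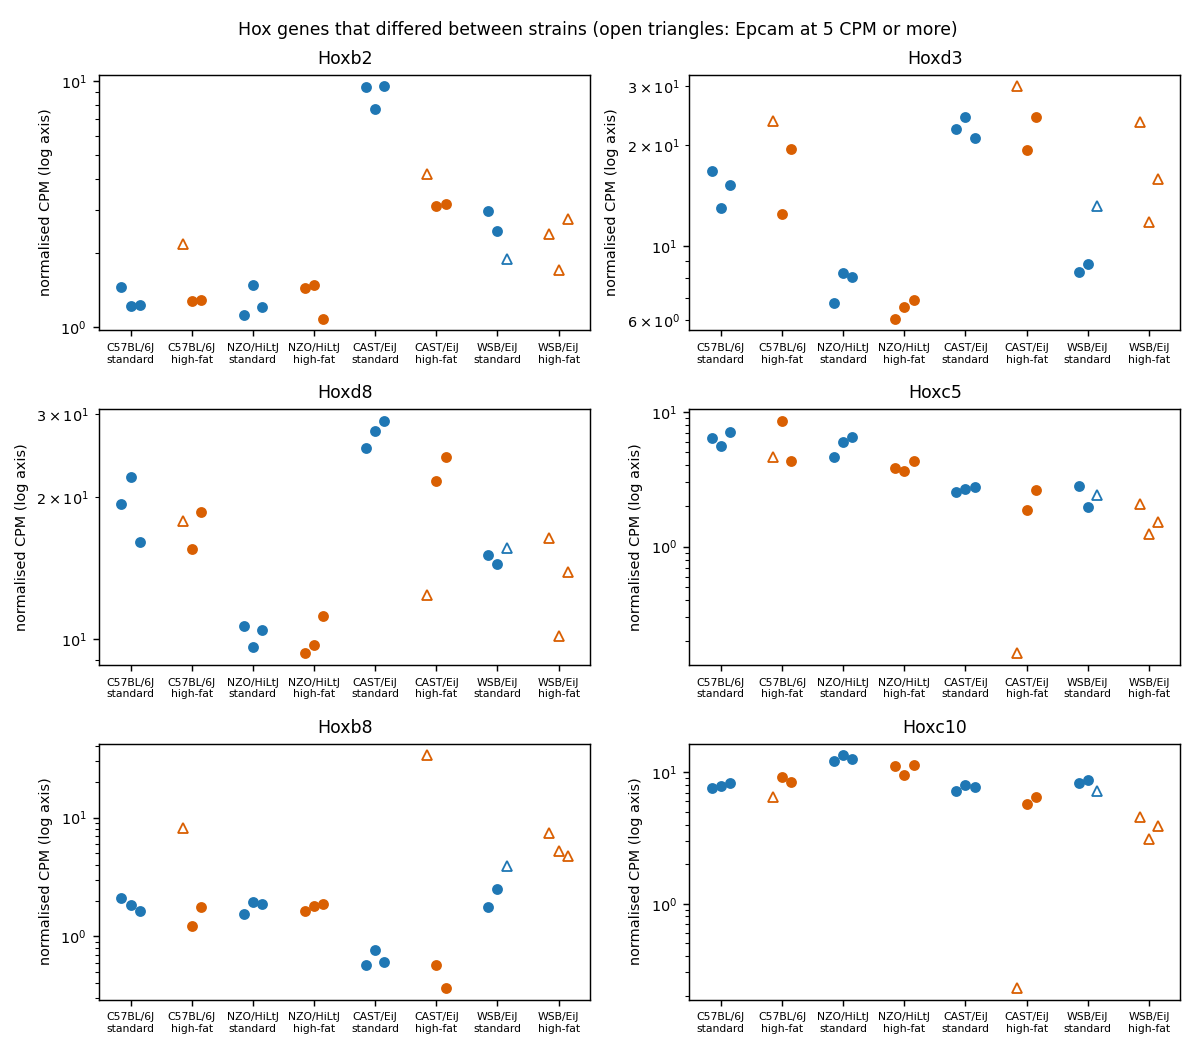
Normalised CPM (log axis) of Hoxb2, Hoxd3, Hoxd8, Hoxc5, Hoxb8 and Hoxc10 in each library, by strain and diet; each symbol is 1 mouse, blue for the standard and orange for the high-fat diet, and open triangles are mice whose Epcam reached 5 CPM. Hoxb2 is highest in CAST/EiJ standard (7.67 to 9.53), Hoxd3 and Hoxd8 are low in NZO/HiLtJ, and Hoxc10 is highest there (9.47 to 13.5).

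WSB/EiJ and C57BL/6J differed in 7 of 32 Hox genes, against 29.5% of all genes (13.2% higher and 16.4% lower). In WSB/EiJ 2 were higher (Hoxb2 and Hoxa2) and 5 lower (among them Hoxc5, Hoxc6, Hoxa6 and Hoxd1). The median log2 fold change was -0.03 for the Hox genes and 0.03 for all genes. Markers higher in WSB/EiJ were 4 of 5 for brown adipocytes, 2 of 9 for reproductive tract and 4 of the 8 tested for brain. So were 1 of the 2 tested for urothelium and 1 of the 3 tested for mammary epithelium. Lower were 5 of 5 for macrophages, 4 of 6 for lymphocytes, 4 of 8 for adipose stroma and 2 of 5 for endothelium. Also lower were 1 of 5 for mesothelium and 1 of 8 for adipocytes. The 9 brain markers summed to 2447 normalised CPM in replicate 2 of WSB/EiJ high-fat and to at most 106 in the other libraries. The part of these cells in the Hox values was not tested. Besides the genes above, the differences lay in the Hoxa cluster and at the 3′ end of Hoxd.

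Hoxa2, a hindbrain gene, ran from 0.634 to 1.26 normalised CPM in WSB/EiJ and from 0.438 to 0.957 in C57BL/6J, with overlap and a log2 fold change of 0.58 ± 0.19 (adjusted p = 0.027) by edgeR's quasi-likelihood test. Hoxa6, a trunk gene, ran from 0.769 to 1.95 in WSB/EiJ and from 2.48 to 3.85 in C57BL/6J, with no overlap and -0.84 ± 0.28 (adjusted p = 0.0317) by edgeR's quasi-likelihood test. Hoxd1, the 3′ gene of its cluster, had 0 counts in all 3 WSB/EiJ standard libraries and 1, 1 and 2 counts in WSB/EiJ high-fat, against 20 and 7 counts over the standard and high-fat libraries of C57BL/6J and 30 and 25 over those of CAST/EiJ. WSB/EiJ passed as lower than C57BL/6J (adjusted p = 0.0156), NZO/HiLtJ (adjusted p = 0.0334) and CAST/EiJ (adjusted p = 0.000373) by edgeR's quasi-likelihood test, and no fold is given at such counts.

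In the remaining pairs, 11 of 32 Hox genes differed between NZO/HiLtJ and CAST/EiJ, with 2 higher and 9 lower in NZO/HiLtJ. Of all genes, 51.1% differed (25.1% higher and 26.1% lower). The higher ones were Hoxc5 and Hoxc10, and the lower ones were Hoxb2, Hoxb3, Hoxb4 and the 6 tested Hoxd genes. The 6 Hoxd genes in this pair were Hoxd1, Hoxd3, Hoxd8, Hoxd9, Hoxd10 and Hoxd11. NZO/HiLtJ and WSB/EiJ differed in 14, against 45.6% of all genes (21.7% higher and 23.9% lower), with 4 higher and 10 lower in NZO/HiLtJ. CAST/EiJ and WSB/EiJ differed in 6, against 35.5% of all genes (17.3% higher and 18.1% lower). Hoxb2, Hoxd1, Hoxd3 and Hoxd8 were higher and Hoxc11 and Hoxd11 lower in CAST/EiJ. For Hoxd3 this last difference was 0.84 ± 0.18 (adjusted p = 0.000974) by edgeR's quasi-likelihood test.

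Without the 6 libraries, where WSB/EiJ keeps 2 mice on the standard diet alone, more members passed in each pair. Pairs with WSB/EiJ then compare the standard diet only, so that the high-fat mice of the other strain drop out of them as well. The counts were 15 of 32 for NZO/HiLtJ against C57BL/6J (42.6% of all genes), 23 for CAST/EiJ against C57BL/6J (55.3%) and 17 for WSB/EiJ against C57BL/6J (41.3%). They were 24 for NZO/HiLtJ against CAST/EiJ (66.1%), 15 for NZO/HiLtJ against WSB/EiJ (45.9%) and 9 for CAST/EiJ against WSB/EiJ (39.5%). The 15 for NZO/HiLtJ against C57BL/6J were not all lower in NZO/HiLtJ. Hoxa11, Hoxa13 and Hoxc10 were higher, with log2 fold changes of 0.72 ± 0.18, 0.86 ± 0.25 and 0.49 ± 0.07, and the rest of the 15 were lower. Among the genes added were Hoxa7, the member with the highest level per kb, which ran from 8.08 to 13 normalised CPM in NZO/HiLtJ, and at 14.3 or more in the C57BL/6J libraries with low Epcam. In that pair it gave a log2 fold change of -0.80 ± 0.09 (adjusted p = 1.18e-05) by edgeR's quasi-likelihood test, against -0.74 ± 0.43 (adjusted p = 0.244) over all libraries.

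Leaving out each of the 24 libraries in turn showed which calls rest on single mice. Counts of Hox genes called are given here without the share of all genes called in the same fit. A change in them is therefore not read as particular to Hox genes. Replicate 1 of CAST/EiJ high-fat moved these counts most: without it 31 Hox genes differed across strains, 12 between NZO/HiLtJ and C57BL/6J, 20 between CAST/EiJ and C57BL/6J and 14 between WSB/EiJ and C57BL/6J. The counts were then 19 between NZO/HiLtJ and CAST/EiJ, 23 between NZO/HiLtJ and WSB/EiJ and 19 between CAST/EiJ and WSB/EiJ. Lower counts came without C57BL/6J high-fat replicate 2 (5 for CAST/EiJ against C57BL/6J), C57BL/6J standard replicate 2 (4 for WSB/EiJ against C57BL/6J), and NZO/HiLtJ standard replicate 1, WSB/EiJ standard replicate 2 or WSB/EiJ high-fat replicate 1 (9 each for NZO/HiLtJ against WSB/EiJ).

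In all 24 of these fits the differences of NZO/HiLtJ from C57BL/6J were called for Hoxd3, Hoxd8, Hoxd9, Hoxd10 and Hoxd11, those of CAST/EiJ from C57BL/6J for Hoxb2, Hoxb3, Hoxb4, Hoxc5 and Hoxc11, and those of WSB/EiJ from C57BL/6J for Hoxb2, Hoxc5 and Hoxd1. The call against C57BL/6J was lost in 3 fits for Hoxc11 in NZO/HiLtJ. In CAST/EiJ it was lost in 2 fits for Hoxc6, 3 for Hoxc4 and 5 for Hoxd3, and in WSB/EiJ in 6 for Hoxa2 and 7 each for Hoxc6 and Hoxa6. For Hoxc10 the call of NZO/HiLtJ against CAST/EiJ was lost in 9 fits and that against WSB/EiJ in 19. For Hoxd10, NZO/HiLtJ against CAST/EiJ gave -0.92 without replicate 1 of CAST/EiJ high-fat (adjusted p = 0.35 by edgeR's quasi-likelihood test). For Hoxd11, CAST/EiJ against WSB/EiJ gave -1.31 without replicate 3 of WSB/EiJ standard (adjusted p = 0.199).

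**Figure D5:**
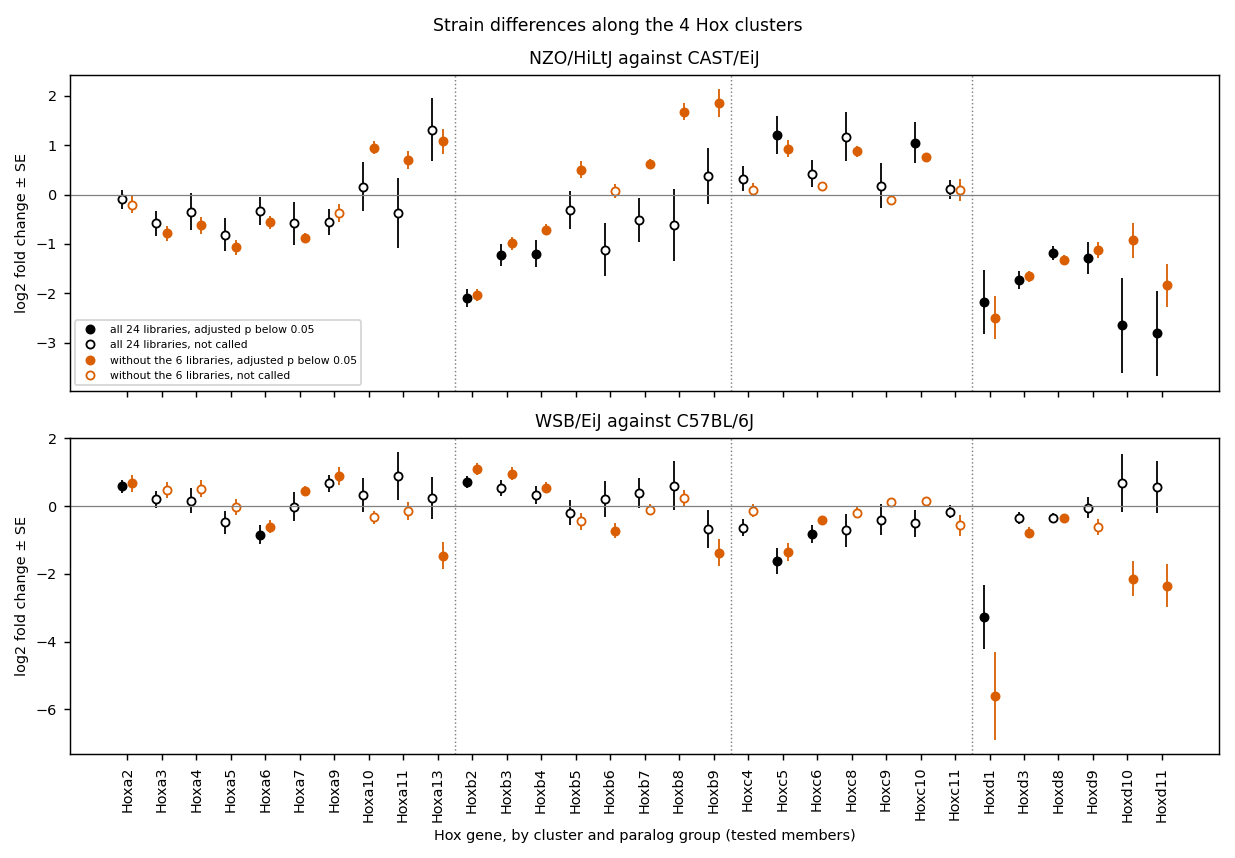
Log2 fold change ± SE (vertical axis) of 31 tested Hox genes in order along the clusters (horizontal axis), for 2 pairs of strains that share no library; black points use all 24 libraries, orange points leave out the 6 whose Epcam reached 5 CPM, and filled points passed an adjusted p of 0.05. In NZO/HiLtJ against CAST/EiJ, Hoxb2 to Hoxb4 and the 6 Hoxd genes lie below 0, while Hoxb8 and Hoxb9 lie above 0 as called points only without the 6 libraries; the orange value of Hoxd1 in WSB/EiJ rests on 0 counts and is no measure of size.

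Few Hox genes passed the test for diet. On the high-fat diet, 0 of 32 differed in C57BL/6J by edgeR's quasi-likelihood test, against 0.00998% of all genes, with 1 at an unadjusted p below 0.05. In NZO/HiLtJ 0 of 32 passed, against 4.89% (2.95% higher and 1.94% lower), with 0 at an unadjusted p below 0.05, and DESeq2 also called 0 in both strains. In CAST/EiJ 2 of 32 passed, against 4.87% (3.27% higher and 1.6% lower), and in WSB/EiJ 1 of 32, against 21.5% (12.9% higher and 8.61% lower). Averaged over the strains 4 of 32 passed, against 28.9%, and the strain by diet interaction was called for 1 of 32, against 3.08%. At an unadjusted p below 0.05 there were 10 in CAST/EiJ, 4 in WSB/EiJ, 13 for the average and 1 for the interaction. The strains' own diet effects enter the average and so are not separate evidence for it.

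The diet effect that passed both with and without the 6 libraries was that of Hoxb2 in CAST/EiJ. Without them it was the 1 of 32 called in this strain, against 2.56% of all genes, and the interaction, then over the 3 strains other than WSB/EiJ, was called for 2 of 32, against 6.92%. Its 3 high-fat libraries, at 4.20, 3.09 and 3.15 normalised CPM, lay below the 3 standard ones, at 9.48, 7.67 and 9.53, with no overlap. The log2 fold change was -1.35 ± 0.25 (adjusted p = 0.0274), or -1.51 ± 0.18 without the 6 libraries (adjusted p = 0.00257), by edgeR's quasi-likelihood test. In C57BL/6J Hoxb2 was at 1.46, 1.21 and 1.22 on the standard and 2.18, 1.28 and 1.28 on the high-fat diet, and in NZO/HiLtJ at 1.12, 1.47 and 1.2 and at 1.43, 1.48 and 1.08. The interaction, which tests whether the diet effect differs between strains, had an adjusted p of 0.0356 for Hoxb2, and of 0.00278 over 3 strains without the 6 libraries. In CAST/EiJ on the high-fat diet 4 of 8 skeletal muscle and 2 of 5 liver markers were also lower. In turn, 4 of 9 reproductive tract and 2 of 7 general epithelial markers were higher. The skeletal muscle sum was 4778 normalised CPM in standard replicate 2, against 43.8 and 8.10 in standard replicates 1 and 3. The reproductive tract sum was 2309 in high-fat replicate 1, against 21.3 and 4.33 in high-fat replicates 2 and 3. The epithelial sum was 945 against 36.1 and 38.2 in the same order. The part of these tissues in the Hoxb2 values was not tested. The call in CAST/EiJ was lost without standard replicate 2 (-1.45, adjusted p = 0.053) or standard replicate 3 (-1.30, adjusted p = 0.065), and that of the interaction in 15 of 24 fits that left out 1 library, with adjusted p from 0.0114 to 0.0817 by edgeR's quasi-likelihood test.

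Within single strains 2 other diet calls were made. Hoxb8 in CAST/EiJ went from 0.568, 0.761 and 0.601 normalised CPM on the standard diet to 33.6, 0.568 and 0.366 on the high-fat diet, where 1 mouse was high and 2 were not. Its log2 fold change was 4.16 ± 1.16 (adjusted p = 0.0477), and -0.46 ± 0.26 without the 6 libraries (adjusted p = 0.365), by edgeR's quasi-likelihood test. Hoxd3 in WSB/EiJ rose by 0.75 ± 0.25 (adjusted p = 0.0388), from 8.34, 8.80 and 13.1 to 23.4, 11.8 and 15.8, with overlap. This has no value without the 6 libraries, since they include every WSB/EiJ high-fat mouse, and the call was lost without high-fat replicate 1 (0.46, adjusted p = 0.199), standard replicate 1 (0.63, adjusted p = 0.159) or standard replicate 2 (0.66, adjusted p = 0.136).

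Averaged over the strains, Hoxb6 rose by 1.23 ± 0.38 (adjusted p = 0.0248), Hoxd11 by 1.84 ± 0.58 (adjusted p = 0.0281), Hoxa11 by 1.57 ± 0.51 (adjusted p = 0.0314) and Hoxb8 by 1.56 ± 0.52 (adjusted p = 0.0347) by edgeR's quasi-likelihood test. Without the 6 libraries, which leaves no high-fat mouse of WSB/EiJ, the average covers the other 3 strains and so is not the same quantity. There the same genes gave 0.16 ± 0.12, 0.32 ± 0.35, -0.03 ± 0.15 and -0.26 ± 0.14, and none of the 4 was called. Of the 12 high-fat libraries 5 reached the Epcam cut of 5 CPM, against 1 of the 12 standard ones. In the set without them, 2 of 32 Hox genes passed for the average over 3 strains, against 12.3% of all genes, and both were lower on the high-fat diet. Hoxa7 had a log2 fold change of -0.29 ± 0.08 (adjusted p = 0.0244) and Hoxb2 one of -0.49 ± 0.10 (adjusted p = 0.00588) by edgeR's quasi-likelihood test. By strain, Hoxb2 gave -1.51 in CAST/EiJ, -0.02 in C57BL/6J and 0.07 in NZO/HiLtJ. Its average thus repeats the CAST/EiJ result and is not a fall in each strain. Hoxa7 gave -0.36, -0.20 and -0.32 in the same order.

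In NZO/HiLtJ, none of whose libraries is among the 6, 4 of 32 Hox genes passed for the diet when the 6 libraries of other strains were left out, against 20.8% of all genes. The standard errors, which rest on a spread shared by all groups, were smaller there. Hoxc8, a thoracic gene, was at 29.2, 29.4 and 34.7 normalised CPM on the standard and at 19.7, 16.9 and 22.5 on the high-fat diet, with no overlap. Its log2 fold change was -0.66 ± 0.68 over all libraries (adjusted p = 0.731) and -0.66 ± 0.15 without the 6 (adjusted p = 0.00639) by edgeR's quasi-likelihood test. Hoxc6 and Hoxc9 gave -0.34 ± 0.10 (adjusted p = 0.0308) and -0.33 ± 0.11 (adjusted p = 0.0396), and Hoxb4 gave 0.51 ± 0.15 (adjusted p = 0.0244). The 3 Hoxc genes fell while Hoxb4 rose. In the same mice Adipoq went from 1670, 1687 and 1943 to 766, 599 and 997 normalised CPM. The 5 macrophage markers summed to 484 to 699 on the standard and 1354 to 1845 on the high-fat diet, with 3 of 5 called higher, and the 5 liver markers to 94.2 to 1027 against 5.02 to 23.6, with 5 of 5 called lower. The part of these cells in the Hox values was not tested.

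Among the 9 cofactors, all of which were tested, 4 differed between strains, which is 44.4% beside 68.2% of all genes tested. Meis1, a DNA-binding partner of Hox proteins, ran from 14.6 to 16.8 normalised CPM in NZO/HiLtJ and was at 22.6 or more in every other library. Against C57BL/6J the log2 fold change was -1.19 ± 0.27 (adjusted p = 0.0036) by edgeR's quasi-likelihood test. Meis2 behaved alike, at 40.8 to 46.4 against 55.1 or more, with -0.92 ± 0.28 (adjusted p = 0.021). Pbx4, a PBX cofactor, was highest in WSB/EiJ, at 1.52 to 3.17 against at most 1.11 elsewhere, and Pbx2 was higher in NZO/HiLtJ than in C57BL/6J by 0.36 ± 0.08 (adjusted p = 0.0046). Meis3, the other MEIS gene, was not called, at 15.8 to 23.2 in NZO/HiLtJ and 9.07 to 24.4 in WSB/EiJ, with -0.16 ± 0.19 for NZO/HiLtJ against C57BL/6J (adjusted p = 0.623).

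Of 19 Polycomb and trithorax genes, 14 differed between strains, or 73.7% beside 68.2% of all genes. Suz12, a core subunit of the complex that methylates histone H3 on silent Hox genes, was between 22.3 and 26.5 normalised CPM in CAST/EiJ and at 33.1 or more elsewhere, with a log2 fold change of -0.49 ± 0.06 against C57BL/6J (adjusted p = 1.3e-06) by edgeR's quasi-likelihood test. Ezh1, one of its catalytic subunits, ran from 28.1 to 62.4 in CAST/EiJ and from 80.6 to 97.8 in C57BL/6J, with -1.28 ± 0.13 (adjusted p = 3.2e-07). Cbx2, of the other Polycomb complex, went the other way, at 3.69 to 5.96 in CAST/EiJ against 2.06 to 2.86 in C57BL/6J. Its log2 fold change was 0.84 ± 0.15 (adjusted p = 0.0002 by edgeR's quasi-likelihood test).

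Of the 13 genes of upstream axial signals 9 were tested, and Cdx1, Cdx2 and Cdx4, which switch on Hox genes in the embryo, were at most 0.042 normalised CPM. Of the 9, 7 differed between strains (77.8% beside 68.2% of all genes). Aldh1a1, a retinoic acid synthesising enzyme, ran from 14.1 to 26.9 normalised CPM in WSB/EiJ and from 51.1 to 83.4 in C57BL/6J, with a log2 fold change of -1.98 ± 0.26 (adjusted p = 1.5e-05) by edgeR's quasi-likelihood test. Aldh1a3, a related enzyme, gave -1.56 ± 0.31 for CAST/EiJ against C57BL/6J (adjusted p = 0.0006), and Rarg, a retinoic acid receptor, -0.58 ± 0.10 for NZO/HiLtJ against C57BL/6J (adjusted p = 0.00036).

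Among 20 other positional transcription factors 18 were tested and 12 differed between strains (66.7% beside 68.2% of all genes). Wt1 ran from 15.4 to 22.3 normalised CPM in NZO/HiLtJ and was at 25.2 or more elsewhere, with a log2 fold change of -2.18 ± 0.25 against C57BL/6J (adjusted p = 4.2e-06) by edgeR's quasi-likelihood test. En1, a gene of the ventral body surface, was highest in C57BL/6J, at 0.128 to 0.239 normalised CPM against at most 0.0944 in the other strains. Six2, known from kidney progenitors and subcutaneous preadipocytes, was at 0.156 to 0.448 in NZO/HiLtJ and at most 0.108 in the rest.

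The non-coding genes of the clusters were mostly low. Of 14 listed, 13 had a row and 6 were tested, and 2 of these differed between strains (33.3% beside 68.2% of all genes). Hoxd3os1, antisense to Hoxd3, ran from 1.05 to 1.42 normalised CPM in NZO/HiLtJ, 1.59 to 2.36 in WSB/EiJ, 2.06 to 3.01 in C57BL/6J and 3.18 to 5.77 in CAST/EiJ. Its order of strain medians was the same as that of Hoxd3, with which its reads cannot be told apart if strand was not used. The second was Hoxa11os, antisense to Hoxa11, at 4.66 to 106 normalised CPM, and its highest value came from the same mouse as that of Hoxa11, WSB/EiJ high-fat replicate 1. In the 18 libraries with low Epcam it was at most 11.6 normalised CPM, so higher values came only from the 6 libraries with Epcam. The part of other tissues in its strain difference was not tested. Hotair and Hottip, long non-coding RNAs of the Hoxc and Hoxa clusters, were at most 0.45 and 0.41. The microRNA genes Mir10a, Mir10b and Mir196b were at 0 in all libraries, in a poly(A) assay that does not measure mature microRNAs.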

How the data were processed

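Poly(A) RNA from the fat of 24 mice was sequenced, per the labels' protocols. The authors deposited gene-level expected counts, which here are whole numbers. The submitters' processing notes name RSEM 1.2.1, Bowtie 0.12.8, CASAVA 1.8.0 and the builds NCBIM37 and mm9, without roles, and strand is not given in the sources used here. The authors' other table, a signal scaled by upper quartiles, equals the count over the 75th percentile of counts above 0 within 0.0005 and was not tested. Symbols came from the reference name table (32919 of 37991 identifiers). The identifiers without a symbol stayed in the fit.

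In R 4.3.3, edgeR 4.0.16 kept 20035 genes by its filter on low counts, scaled by trimmed means and fitted 1 coefficient per group, with 16 residual degrees of freedom and quasi-likelihood tests (2-sided, Benjamini-Hochberg adjustment over all genes). Normalised CPM, log2 fold changes and p-values were computed here from the deposited counts. Pairs of libraries in a group differed by a chi-square per degree of freedom of 22.1 to 1488, above counting error. Transcript lengths came from GENCODE M21, another annotation than that of the counts, and all 38 members had one. The fit was tested on simulated data. DESeq2 1.42.0, other scalings, no filter, single diets, the compared strains alone, the libraries with low Epcam alone and each library left out were tried.

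Members and lists were chosen with earlier results of these data known. Fold changes are given for all called members of a comparison with up to 8, otherwise for the 4 per direction with the smallest adjusted p, and for other lists for up to 3 members per direction. Of the members, 1 is included in the counts and is otherwise not reported here. Values for other members were chosen after they were seen.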

Additional observations from a re-analysis of the deposited data

Results flagged for a closer look

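The effect of diet on Hoxb2 passed the test for a difference between strains, the strain by diet interaction of edgeR's quasi-likelihood test (adjusted p = 0.0356 over 20035 genes). All 3 CAST/EiJ mice on the high-fat diet, at 4.20, 3.09 and 3.15 normalised CPM, were below all 3 on the standard diet, at 9.48, 7.67 and 9.53. C57BL/6J and NZO/HiLtJ mice lay between 1.08 and 2.18 normalised CPM on either diet, and WSB/EiJ mice between 1.70 and 2.95. The call was lost in 15 of 24 fits that left out 1 library, with adjusted p up to 0.0817, and without the filter on low counts (adjusted p = 0.0508 by edgeR's quasi-likelihood test).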

How the results depend on the processing

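Of 78 single-gene Hox results that passed, scaling by median ratios or by upper quartiles kept 77 past the threshold and in the same direction, and DESeq2 kept 74 of the 76 it could give. Without the 6 libraries with Epcam 64 of 77 were kept, 10 lost the call and 3 turned. Without the filter 67 remained past it and 11 did not, on the standard diet alone 51 of 65 and on the high-fat diet alone 16 of 65, with fewer samples in each fit. With only the compared strains 43 of 54 did.

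Counts of Hox genes called moved as follows. Shares of all genes called are given with the Results for the full fit and without the 6 libraries. They are not given for DESeq2, no filter, the high-fat diet alone, single strains or the fits with 1 library left out. A change in those counts is therefore not read as particular to Hox genes. For the diet in CAST/EiJ the count was 1 without the filter, 7 by DESeq2, 1 without the 6 libraries with Epcam and 0 with CAST/EiJ alone. For the diet in WSB/EiJ it was 0 without the filter and 2 by DESeq2. The average diet effect gave 8 by DESeq2 and 2 without the 6 libraries. The interaction gave 0 without the filter and 2 without the 6 libraries, and the diet in NZO/HiLtJ gave 4 without them and 4 with NZO/HiLtJ alone. Any strain difference gave 30 without the 6 libraries and 3 on the high-fat diet.

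NZO/HiLtJ against C57BL/6J gave 15 without the 6 libraries, 10 on the standard diet, 1 on the high-fat diet and 14 with these strains alone. CAST/EiJ against C57BL/6J gave 23, 17, 1 and 5 under the same settings. WSB/EiJ against C57BL/6J gave 17 without the 6 libraries, 12 on the standard and 0 on the high-fat diet. NZO/HiLtJ against CAST/EiJ gave 24, 20 and 6 in that order. NZO/HiLtJ against WSB/EiJ gave 5 on the high-fat diet and 23 with these strains alone, and CAST/EiJ against WSB/EiJ gave 12 on the standard and 0 on the high-fat diet. On the standard diet 27% of all genes were called for NZO/HiLtJ against C57BL/6J, 50.8% for CAST/EiJ against C57BL/6J and 44.7% for WSB/EiJ against C57BL/6J. The shares there were 56.8% for NZO/HiLtJ against CAST/EiJ and 44.5% for CAST/EiJ against WSB/EiJ. Shares for the high-fat diet and for the compared strains alone are not given here. The cause of these shifts was not tested.

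Leaving out 1 library at a time gave 0 to 1 Hox genes for the diet in NZO/HiLtJ (1 without CAST/EiJ high-fat replicate 1). In CAST/EiJ it gave 0 to 10, with 9 and 10 without its high-fat replicates 2 and 3, and 0 without its standard replicate 2 or 3. In WSB/EiJ it gave 0 to 12, with 12 without CAST/EiJ high-fat replicate 1, 3 without WSB/EiJ standard replicate 3, and 0 without WSB/EiJ standard replicate 1 or 2. The average diet effect gave 1 to 12, with 9, 12 and 11 without CAST/EiJ high-fat replicates 1, 2 and 3, 8 without WSB/EiJ high-fat replicate 3, and 1 without C57BL/6J high-fat replicate 1, CAST/EiJ standard replicate 1 or WSB/EiJ standard replicate 2. The interaction gave 0 to 5, with 5 without CAST/EiJ high-fat replicate 1 and 0 in 15 of 24 fits. The ranges were 13 to 31 for any strain difference, 5 to 12 for NZO/HiLtJ against C57BL/6J, 5 to 20 for CAST/EiJ against C57BL/6J, 4 to 14 for WSB/EiJ against C57BL/6J, 9 to 19 for NZO/HiLtJ against CAST/EiJ, 9 to 23 for NZO/HiLtJ against WSB/EiJ and 4 to 19 for CAST/EiJ against WSB/EiJ.

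Direction turned for Hoxb8 under the diet in CAST/EiJ, at -0.46 without the 6 libraries and between -0.47 and 4.71 when 1 library was left out, and for Hoxa11 (-0.032) and Hoxb8 (-0.26) under the average diet effect without the 6 libraries. No paired analysis was made, because each library came from a different mouse and the labels give no pairs or replicate numbers. Members with few counts, such as Hoxb1, Hoxd1, Hoxd12 and Hoxd13, are limited by depth.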

Other observations

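Hoxb3os, the antisense gene beside Hoxb3, and Haglr, a non-coding gene beside Hoxd1, were looked at after the values of their neighbours were seen. Hoxb3os was at 14.2, 11.7 and 13.1 normalised CPM in CAST/EiJ standard and at 10.5, 6.07 and 6.25 in CAST/EiJ high-fat, against 2.58 to 4.99 in C57BL/6J, 2.80 to 3.49 in NZO/HiLtJ and 3.17 to 6.89 in WSB/EiJ. Its log2 fold change for CAST/EiJ against C57BL/6J was 1.56 ± 0.18 (adjusted p = 1.63e-06), and for the diet in CAST/EiJ -0.77 ± 0.25 (adjusted p = 0.069), by edgeR's quasi-likelihood test. Haglr ran from 0.444 to 1.53 normalised CPM in CAST/EiJ and from 0.0688 to 0.254 in WSB/EiJ, with a log2 fold change of 2.31 ± 0.36 between them (adjusted p = 4.87e-05 by edgeR's quasi-likelihood test). Hoxd1, its neighbour, was likewise higher in CAST/EiJ than in WSB/EiJ.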
